A study of Ovis aries with 115 samples.

Results

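FOXC1 (Forkhead Box C1, ENSOARG00000002778) was examined as 1 gene of the 27054 gene identifiers counted in the cervix of ewes from 4 breeds. The gene was chosen by its difference between Norwegian White Sheep (NWS) and Suffolk ewes in the follicular phase after hormonal synchronisation, where it was listed among the genes with the highest level in Suffolk relative to NWS. The levels of those ewes are therefore described with no test, and the main tests were kept to ewes outside that difference. These tests are not fully independent of the choice, since earlier results of these data were known. Of the comparisons, 4 were added after the values of FOXC1 were seen. An alternative fit of all 12 groups also took its variance estimates from the ewes of the choice. The gene's name was taken from the study's tables, in which it is paired with this identifier.

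FOXC1 encodes a DNA-binding transcription factor of the forkhead family, a group of proteins that share a winged-helix domain. It is known from the development of mesoderm, blood and lymph vessels, kidney and the front of the eye, where it acts together with its close relative FOXC2, and from the control of rest in hair follicle stem cells. In vessels the FOXC proteins are known to act upstream of Notch ligands and receptors. In the ovine genome of RefSeq (assembly ARS-UI_Ramb_v3.0) the gene lies between GMDS and FOXF2. The assembly differs from the one on which the reads were counted, so it was used only for the order of these neighbours.

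The study sampled the cervix post mortem from adult multiparous ewes of the Irish breeds Suffolk and Belclare, of low and medium fertility after cervical insemination with frozen-thawed semen, and of the Norwegian breeds Fur and NWS, both of high fertility. Ewes were at 1 of 3 stages: the follicular phase after synchronisation with progestagen sponges and equine chorionic gonadotropin, the luteal phase of a synchronised cycle, or the follicular phase of a natural cycle. The 12 groups hold 11 Suffolk, 8 Fur, 10 Belclare and 10 NWS ewes at the synchronised follicular phase. They hold 8, 10, 10 and 10 ewes of these breeds at the natural follicular phase, and 10, 9, 10 and 8 at the synchronised luteal phase. Each breed came from 1 country. A difference of an Irish from a Norwegian breed and a difference of country cannot be told apart. In pieces of whole cervix, fewer cells that express a gene and less RNA of it per cell cannot be told apart either. The natural follicular and the luteal ewes differ both in phase and in the kind of cycle, and these cannot be told apart in a comparison of the groups.

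Polyadenylated RNA was sequenced as 1 library per ewe, with total counts of 12238996 to 31261671 (median 17835128.5). Levels are given in CPM, the read count relative to the library's total after TMM normalization over all 114 grouped ewes. At the median depth 3 counts equal 0.168 CPM. Of the markers of gland epithelium that were checked, PAX8 stood at 28.9 to 211 CPM, MUC16 at 127 to 4411 CPM and WFDC2 at 49.9 to 2512 CPM. The mucin MUC5B ran from 0.283 to 434 CPM (median 63.5 CPM), so it was near the floor in the lowest ewe. In 2 libraries labelled NWS, replicates 4 and 10 of the natural follicular phase, mitochondrial COX-1 stood at 38.2 and 32.7 CPM, inside the 25.8 to 49.2 CPM of all Fur ewes, whereas the other NWS ewes of that phase had at least 816 CPM. The FOXC1 levels of these libraries were 0.784 and 0.510 CPM, and the FOXC1 fold changes of natural follicular NWS ewes are also given without them.

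FOXC1 was a gene of low abundance in the cervix. In 11 of the 12 groups, luteal Suffolk ewes being the exception, its level differed more between ewes of a group than that of most genes. Across all 114 ewes it ranged from 0.0589 CPM, 1 count in a luteal Belclare ewe, to 8.68 CPM, 201 counts in a luteal Suffolk ewe. It stood under 1 CPM in 36 ewes. Over all stages the 29 Suffolk ewes averaged 5.33 ± 2.56 CPM (mean ± SD). The 27 Fur ewes averaged 2.88 ± 1.69 CPM, the 30 Belclare ewes 2.09 ± 2.02 CPM and the 28 NWS ewes 1.05 ± 0.777 CPM. Those under 1 CPM were 2 Suffolk, 3 Fur, 14 Belclare and 17 NWS ewes.

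**Figure D1:**
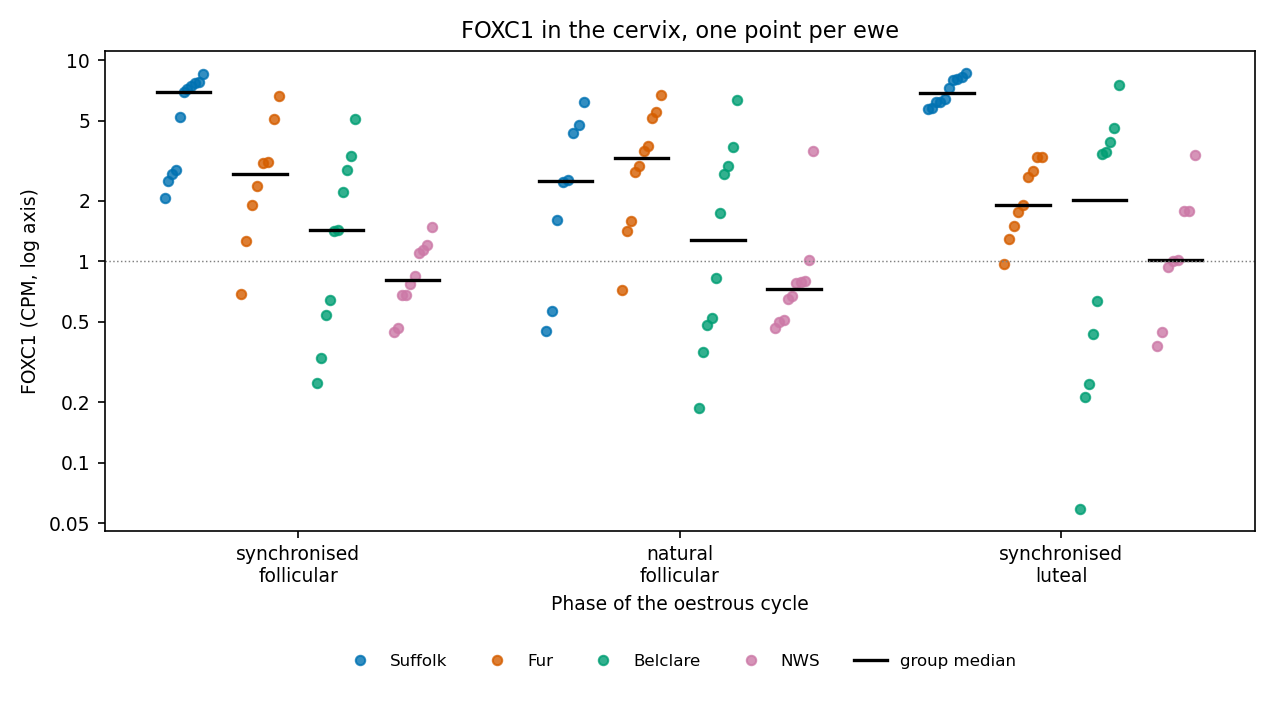
FOXC1 in CPM on a log axis, with 1 point per ewe, by stage and breed. Black bars are group medians and the dotted line marks 1 CPM. The 10 luteal Suffolk ewes sit between 5.75 and 8.68 CPM, whereas the 10 luteal Belclare ewes spread from 0.0589 to 7.57 CPM.

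The order of the 12 group means ran from luteal Suffolk to synchronised follicular NWS. Luteal Suffolk ewes had the highest mean, 7.06 ± 1.12 CPM (SD, n = 10). Synchronised follicular Suffolk ewes followed with 5.54 ± 2.52 CPM (n = 11). Next stood natural follicular Fur (3.41 ± 1.93 CPM, n = 10), synchronised follicular Fur (3.02 ± 1.98 CPM, n = 8) and natural follicular Suffolk (2.87 ± 2.07 CPM, n = 8). The middle of the order held luteal Belclare (2.46 ± 2.54 CPM, n = 10), luteal Fur (2.17 ± 0.874 CPM, n = 9), natural follicular Belclare (1.99 ± 1.98 CPM, n = 10) and synchronised follicular Belclare (1.81 ± 1.57 CPM, n = 10). The 3 NWS groups closed it, with 1.34 ± 0.979 CPM at the luteal phase (n = 8), 0.971 ± 0.913 CPM at the natural follicular phase (n = 10) and 0.884 ± 0.341 CPM at the synchronised follicular phase (n = 10). No group differed from its neighbour in this order by more than the larger of their SDs.

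The spread within groups was itself uneven. In luteal Suffolk ewes the coefficient of variation of FOXC1 exceeded that of only 21.7% of the genes tested, and the highest ewe had 1.51 times the level of the lowest. In luteal Belclare ewes it exceeded that of 97.4% of genes, and the highest ewe stood 128 times above the lowest. In NWS it exceeded that of 94.4% of genes at the luteal phase and 97.4% at the natural follicular phase, where 3 of 8 and 8 of 10 ewes were under 1 CPM. Each of these groups held a single high ewe, at 3.40 and 3.52 CPM. The genes in this ranking were not matched to FOXC1 for abundance. Synchronised follicular NWS ewes, 6 of 10 of them under 1 CPM, were more alike (78.0% of genes). Counting error alone, averaged over the ewes of a group, gave a coefficient of variation of 9.07% in luteal Suffolk and 32.3% in luteal Belclare ewes, the groups with the highest level and the lowest single count. In NWS ewes it gave 24.0% at the luteal, 28.8% at the natural follicular and 27.9% at the synchronised follicular phase. The whole coefficient of variation of the last group was 38.6%.

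At the synchronised follicular phase, on which the gene was chosen, Suffolk ewes had no value of FOXC1 between 2.84 and 5.20 CPM. In 4 of the 11 ewes the level was 2.07, 2.52, 2.73 and 2.84 CPM, and the other 7 lay between 5.20 and 8.53 CPM with a group median of 6.95 CPM. The 10 NWS ewes ranged from 0.445 to 1.48 CPM (median 0.809 CPM), all below the lowest Suffolk ewe. The estimated log2 fold change of NWS against Suffolk was -2.63, a 6.19-fold lower level in NWS. It is a description of the ewes that the gene was selected on, as are the next values.

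Fur ewes of the synchronised follicular phase ranged from 0.685 to 6.61 CPM (median 2.72 CPM), and 3 of 8 lay below the lowest Suffolk ewe. Belclare ewes ranged from 0.248 to 5.09 CPM (median 1.43 CPM), with 6 of 10 below the lowest Suffolk ewe. The log2 fold change against Suffolk was -0.88 for Fur and -1.61 for Belclare, and that of NWS was -1.76 against Fur and -1.03 against Belclare. All 4 estimates share the Suffolk or NWS ewes of the choice. Fur and Belclare ewes, which were not used in it, did not differ past the threshold at this phase: the log2 fold change was 0.74 (SE 0.53, adjusted p = 0.313), with 9.26% of genes called between them.

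A gene was called where the edgeR quasi-likelihood test gave a Benjamini-Hochberg adjusted p under 0.05 over the 14811 genes tested and the fold change was over 1.5. FOXC1 was among the genes tested because 27 of the 39 synchronised follicular ewes had at least 1 CPM, namely all 11 Suffolk, 7 Fur, 6 Belclare and 3 NWS ewes. The filter asked for 10 ewes, a number that the Fur and Belclare ewes alone exceeded.

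The first question was whether the order of the breeds seen at the synchronised follicular phase was also seen in other ewes, at the luteal phase. The 10 luteal Suffolk ewes had 5.75, 5.79, 6.18, 6.23, 6.41, 7.27, 8.01, 8.04, 8.27 and 8.68 CPM. The 8 luteal NWS ewes had 0.382, 0.445, 0.936, 1.01, 1.02, 1.77, 1.78 and 3.40 CPM. Every NWS ewe lay below every Suffolk ewe, with a gap of more than 2 CPM between the nearest of them.

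FOXC1 was lower in luteal NWS than in luteal Suffolk ewes, with a log2 fold change of -2.38 (SE 0.33, adjusted p = 0.000366), a 5.20-fold lower level. In this comparison 4.35% of genes were called, 2.9% higher and 1.45% lower in NWS. An exact two-sided permutation test of the mean log2 CPM gave p = 4.57e-05, the smallest this design allows. The call held without any single ewe (adjusted p from 2.84e-05 to 0.00136). It did not hold with a muscle score, the average of ACTG2 and DES in log2 CPM, as a covariate. The log2 fold change was then -1.30 (adjusted p = 0.298), in a fit that called 1 gene in all. The study listed ACTG2 and DES among the genes lowest in Suffolk relative to NWS, so the score itself differs by breed. It ran from 8.70 to 10.7 in luteal NWS and from 7.15 to 8.74 in luteal Suffolk ewes. Breed and muscle score can therefore hardly be told apart in this fit.

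Luteal Fur ewes ranged from 0.974 to 3.31 CPM, with a median of 1.91 CPM. All 9 lay below the lowest Suffolk ewe, and the log2 fold change was -1.71 (SE 0.21, adjusted p = 9.01e-05), a 3.28-fold lower level in Fur. Of all genes, 13.8% were called between these groups. The exact two-sided permutation p was 2.17e-05, the smallest possible here, and the call held without any single ewe (adjusted p from 2.27e-05 to 0.000292).

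Luteal Belclare ewes fell into values of 0.0589, 0.213, 0.247, 0.435 and 0.633 CPM and values of 3.42, 3.48, 3.94, 4.60 and 7.57 CPM, with none between. The 5 lower values rest on 1 to 11 counts per library, and the exact 95% Poisson interval of the highest of them was 0.316 to 1.13 CPM, which covers counting error only. Of the 10 ewes 9 lay below the lowest Suffolk ewe. FOXC1 did not pass the threshold against Suffolk, with a log2 fold change of -1.53 (SE 0.55, adjusted p = 0.103), where 2.43% of genes were called. It passed in DESeq2 (adjusted p = 0.049) and in the fit of all 12 groups (adjusted p = 0.0263). The two-sided permutation test of the mean log2 CPM, in which the lowest ewes weigh more, gave a difference of -2.43 and an unadjusted p = 8e-05.

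The 3 other luteal pairs did not pass. The log2 fold change of NWS was -0.69 against Fur (SE 0.38, adjusted p = 0.514) and -0.86 against Belclare (SE 0.70, adjusted p = 0.375), and that of Fur against Belclare was -0.18 (SE 0.61, adjusted p = 0.834). Genes were called at 0.0405%, 11.6% and 16.3% in these pairs. The interval of NWS against Fur, taken as 1.96 SE (the 95% normal quantile) on either side, ran from -1.44 to 0.06, so a 2-fold lower level in NWS lies inside it. The sign of Fur against Belclare turned on the log scale of single ewes, with a difference of 0.69 in mean log2 CPM (exact two-sided permutation p = 0.325).

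**Figure D2:**
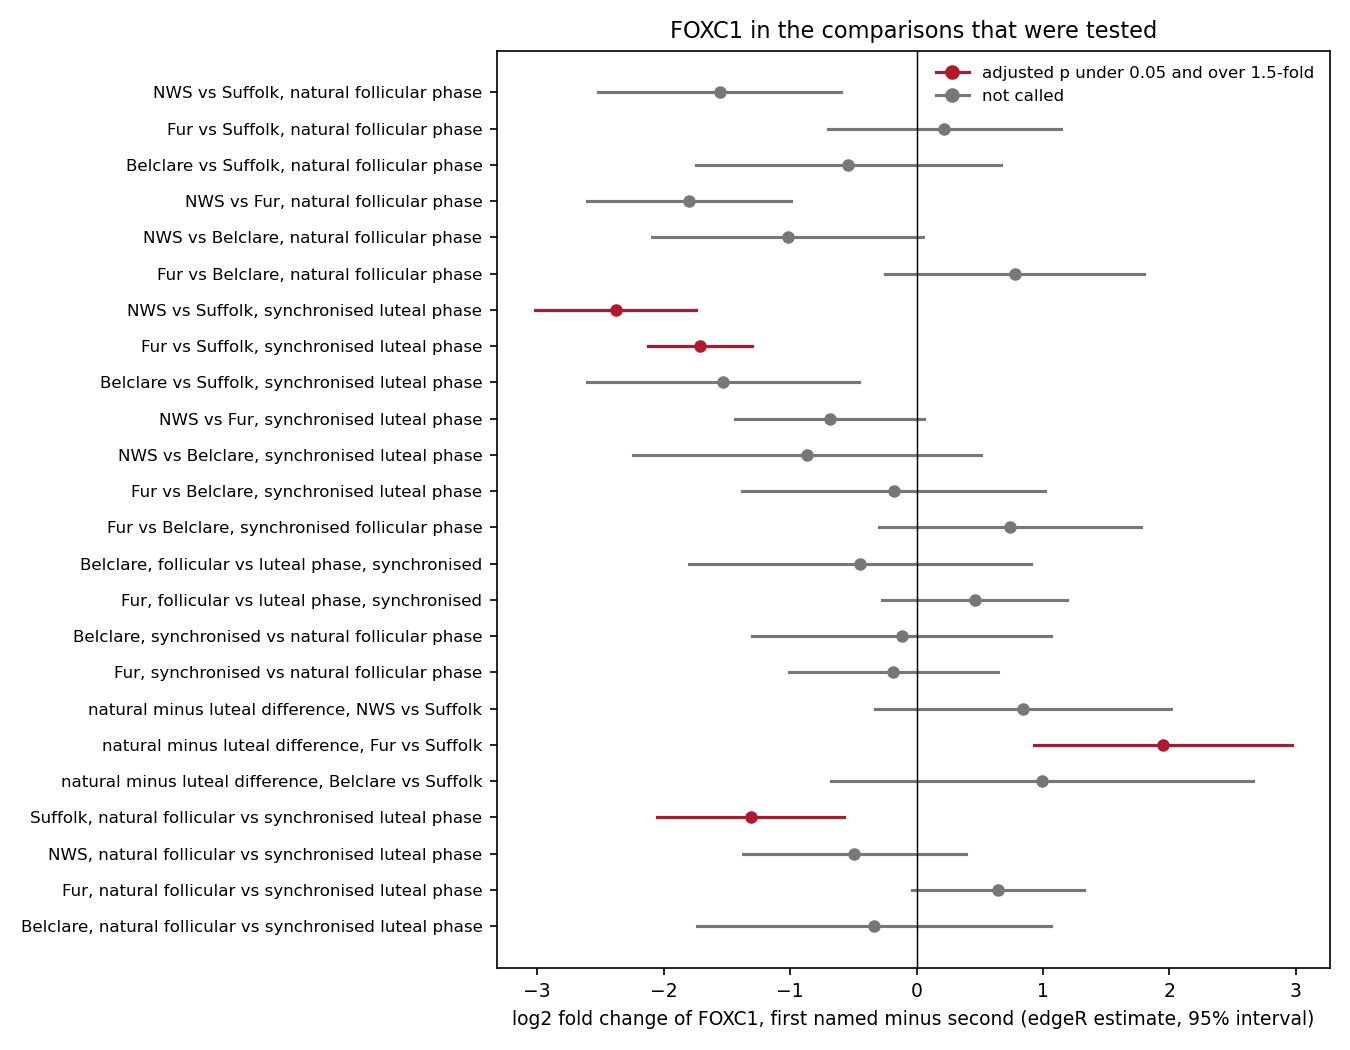
log2 fold change of FOXC1 in each comparison tested, as the edgeR estimate with an interval of 1.96 SE on either side. Points in red passed an adjusted p of 0.05 and a 1.5-fold change; these were NWS and Fur against Suffolk at the luteal phase, natural follicular against luteal Suffolk ewes, and the difference between stages of Fur against Suffolk.

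At the natural follicular phase Suffolk ewes were spread more widely than at the luteal phase. The 8 Suffolk ewes had 0.452, 0.567, 1.62, 2.48, 2.54, 4.35, 4.78 and 6.20 CPM, a 13.7-fold range. Of the 10 NWS ewes, 9 lay between 0.465 and 1.01 CPM and replicate 7 had 3.52 CPM. Suffolk and NWS ewes overlapped: the lowest ewe of both groups was a Suffolk ewe, a second Suffolk ewe lay among the 9 lower NWS ewes, and 5 of the 8 Suffolk ewes lay at or below NWS replicate 7.

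FOXC1 did not pass the threshold between NWS and Suffolk at the natural follicular phase, with a log2 fold change of -1.56 (SE 0.49, adjusted p = 0.0974), where 0.993% of genes were called, 0.533% higher and 0.459% lower in NWS. The result was close to the threshold. It passed without NWS replicate 7 (log2 fold change -2.05, adjusted p = 0.0484) and without Suffolk replicate 7, which has the lowest level of its group (-1.72, adjusted p = 0.0499). It also passed in DESeq2 (adjusted p = 0.0324) and in the fit of all 12 groups (adjusted p = 0.0262), but not without NWS replicates 4 and 10 (-1.44, adjusted p = 0.212). The exact two-sided permutation test gave an unadjusted p = 0.021.

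Natural follicular Fur ewes were not below Suffolk ewes. They ranged from 0.719 to 6.69 CPM (median 3.25 CPM) against 0.452 to 6.20 CPM (median 2.51 CPM), and the log2 fold change was 0.22 (SE 0.47, adjusted p = 0.769), with 9.62% of genes called. The interval of this difference, -0.70 to 1.14, leaves out the value of -1.71 seen at the luteal phase. Against NWS the direction was that of the other stages, with a log2 fold change of NWS minus Fur of -1.80 (SE 0.41), p = 0.000265 before and 0.163 after adjustment in edgeR. Of the 10 NWS ewes 5 lay below the lowest Fur ewe. In that pair 0.0338% of genes, 5 in all, were called. FOXC1 ranked 24 by p among the 14811 genes, and it was called in DESeq2 (adjusted p = 0.00605), in the fit of all 12 groups (adjusted p = 0.0297) and without NWS replicate 7 (log2 fold change -2.30, adjusted p = 0.00802). Without NWS replicates 4 and 10 the log2 fold change was -1.68 (adjusted p = 0.309).

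Natural follicular Belclare ewes ranged from 0.186 to 6.35 CPM (median 1.28 CPM), on 3 to 105 counts. Their log2 fold change was -0.54 against Suffolk (SE 0.61, adjusted p = 0.779), where edgeR called 0% of genes, with 1443 genes at an unadjusted p under 0.05, and DESeq2 called 18. That of NWS against Belclare was -1.02 (SE 0.55, adjusted p = 0.189) with 13% of genes called, or -0.90 without NWS replicates 4 and 10 (adjusted p = 0.316). Fur against Belclare gave 0.78 (SE 0.52, adjusted p = 0.246) with 15.7% of genes called. All 3 intervals include 0 and differences of more than 2-fold.

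Whether the breed difference itself differed between these stages was tested as an interaction, with breed, stage and their product in 1 fit. For Fur against Suffolk it did: the log2 fold change at the natural follicular phase exceeded that at the luteal phase by 1.95 (SE 0.52, adjusted p = 0.0457), with 1.23% of genes called. This call was at the threshold, since without a filter on low counts the adjusted p was 0.0648 and with an epithelium score as a covariate 0.0504. For NWS the term was 0.84 (SE 0.60, adjusted p = 0.858), with 0.0135% of genes called, and 0.95 without NWS replicates 4 and 10 (adjusted p = 0.877). For Belclare it was 0.99 (SE 0.85, adjusted p = 0.703), with 0% of genes called by edgeR, 1617 genes at an unadjusted p under 0.05 and 64 genes called by DESeq2. All 3 terms share the Suffolk ewes.

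Within Suffolk the natural follicular and luteal levels lay apart. Of the 8 natural follicular ewes, 7 were below the lowest luteal ewe, and the other, at 6.20 CPM, was inside the luteal range. FOXC1 was lower at the natural follicular phase, with a log2 fold change of -1.31 (SE 0.38, adjusted p = 0.0204), a 2.48-fold lower level, where 12.7% of genes were called. The exact two-sided permutation p was 0.000183. A test of the change against 1.5-fold (glmTreat) did not pass (adjusted p = 0.229). This comparison and its counterparts in the other breeds were chosen after the values were seen.

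In the other breeds the same comparison gave no call. The log2 fold change of natural follicular against luteal ewes was 0.64 in Fur (SE 0.35, adjusted p = 0.145), with 5 of 10 natural follicular ewes above the highest luteal ewe. It was -0.49 in NWS (SE 0.45, adjusted p = 0.486), or -0.38 without NWS replicates 4 and 10 (adjusted p = 0.651), and -0.34 in Belclare (SE 0.71, adjusted p = 0.733). Genes were called at 18.5% in Fur, 9.11% in NWS and 19.7% in Belclare, so these stages differed in many other genes. Suffolk and Fur estimates had opposite signs, and their difference is the interaction given above.

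The effect of phase within the synchronised cycle was tested in Belclare and Fur only. FOXC1 did not pass in either, although 22.4% and 23.8% of genes were called. The log2 fold change of the follicular against the luteal phase was -0.45 in Belclare (SE 0.69, adjusted p = 0.629) and 0.46 in Fur (SE 0.37, adjusted p = 0.328), with intervals of -1.80 to 0.90 and -0.27 to 1.19. The values in Suffolk and NWS, -0.37 and -0.62, are given with no test. In Suffolk 5 of the 11 synchronised follicular ewes lay below the lowest luteal ewe.

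The effect of synchronisation at the follicular phase was likewise tested in Belclare and Fur. The log2 fold change of the synchronised against the natural phase was -0.12 in Belclare (SE 0.60, adjusted p = 1) and -0.18 in Fur (SE 0.42, adjusted p = 0.802). In Belclare edgeR called 0% of genes, with 291 at an unadjusted p under 0.05 and 0 called by DESeq2, and in Fur 4.92% were called. The interval in Fur ran from -1.01 to 0.64. As values with no test, synchronised follicular Suffolk ewes stood 1.92-fold above natural ones (log2 fold change 0.94), with 6 of 11 above the highest natural ewe, and NWS ewes differed by -0.12.

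The summed level of tissue markers differed between these groups, and its part in the FOXC1 results was not tested beyond the covariate fits. The summed level of 6 smooth muscle genes, which encode contractile and associated proteins of muscle (ACTG2 and DES among them), was 948 to 3919 CPM in luteal NWS and 322 to 983 CPM in luteal Suffolk ewes. In luteal Fur ewes it was 589 to 9421 CPM, and in luteal Belclare ewes 81.2 to 2310 CPM. That of 21 epithelial genes was 1633 to 2997 CPM in luteal NWS, 1108 to 3006 CPM in luteal Fur, 2523 to 4247 CPM in luteal Belclare and 2216 to 3323 CPM in luteal Suffolk ewes, so that the groups overlapped, and no gene of either list was at 0 in every ewe of a group. With the muscle score as a covariate, which ended the call of luteal NWS against Suffolk ewes, Fur against Suffolk was -1.85 (adjusted p = 0.00742), and the interaction of Fur against Suffolk was 2.12 (adjusted p = 0.0226). With the epithelium list as a covariate the luteal differences were -2.08 for NWS (adjusted p = 0.0316) and -1.96 for Fur (adjusted p = 0.00172).

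Natural follicular Suffolk ewes were more uneven in these markers than luteal ones. Their smooth muscle sum ran from 70.6 to 6065 CPM, and that of natural follicular NWS ewes from 1298 to 23074 CPM. Their epithelium sum ran from 2125 to 3981 CPM, against 1516 to 3269 CPM in NWS. The difference between natural follicular and luteal Suffolk ewes was -1.40 with the muscle covariate (adjusted p = 0.0121) and -1.42 with the epithelium covariate (adjusted p = 0.00704). Natural follicular NWS against Suffolk gave -0.89 with the muscle covariate (adjusted p = 0.852) and -0.91 with the epithelium covariate (adjusted p = 0.57).

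**Figure D3:**
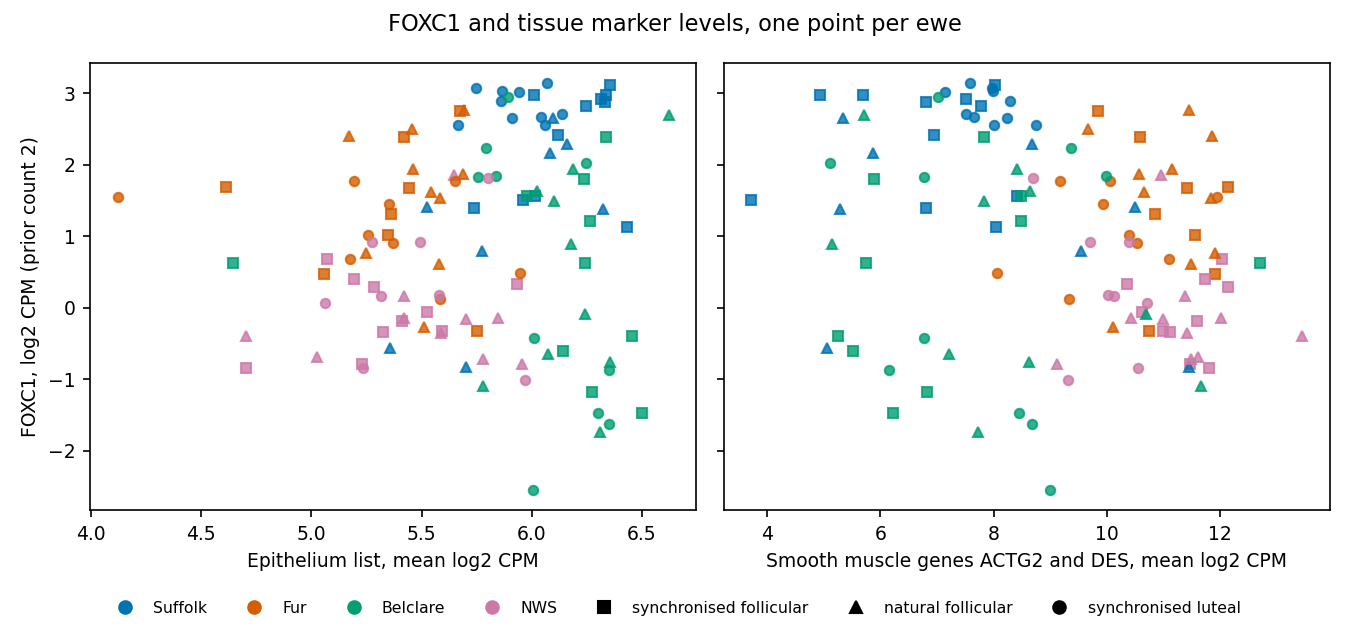
FOXC1 in log2 CPM (prior count 2) against the epithelium score (left) and the muscle score (right), each an average over genes in log2 CPM, with 1 point per ewe. Colours are breeds and shapes stages. Ewes of the Norwegian breeds lie mostly to the right in the muscle panel; within groups the correlation was 0.000668 on the left and -0.116 on the right.

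Within groups the correlation of FOXC1 with either marker score was near 0. After the mean of each of the 12 groups was subtracted from log2 CPM, its Pearson correlation over 114 ewes was 0.000668 with the epithelium score and -0.116 with the muscle score. These correlations are descriptions, over points that share library depth.

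Genes of pathways in which FOXC1 is known to act were read from lists, in luteal and in natural follicular NWS against Suffolk ewes. Names were known for 1352 identifiers only, most of them from genes that the study listed as higher in Suffolk than in Fur. The lists are therefore short and lean to genes that were high in Suffolk. The smooth muscle list leans the other way, since its called genes were among those the study listed as lower in Suffolk. In neither case is the direction independent of breed. The shares over all genes were 2.9% higher and 1.45% lower at the luteal phase and 0.533% higher and 0.459% lower at the natural follicular phase. Those over the named genes, from which the lists were drawn, are not given. The counts and medians below are therefore descriptions, and a larger share in a list than over all genes does not show enrichment. With the muscle covariate 0 genes of any list were called at either phase, and the test against 1.5-fold (glmTreat) called only the 5 smooth muscle genes at the luteal phase. Of 15 forkhead genes 2 had an identifier, and neither was called at either phase. FOXF1, which acts in the mesenchyme of gut and lung, had a log2 fold change of -0.36 at the luteal phase (adjusted p = 0.174) and -0.64 at the natural follicular phase (adjusted p = 0.133). FOXK1, a regulator of metabolism and muscle progenitors, had -0.28 (adjusted p = 0.0854) and -0.19 (adjusted p = 0.585). FOXC2 and the neighbour FOXF2 had no identifier among these names.

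Of 6 Notch pathway genes 2 were lower and 0 higher in luteal NWS ewes, with a median log2 fold change of -0.76 against 0.00 over all genes. NOTCH4, a receptor of endothelial cells, stood at 32.2 ± 4.72 CPM (SD) in the 8 NWS ewes and at 60.1 ± 25.2 CPM in the 10 Suffolk ewes, a log2 fold change of -0.90 (SE 0.20, adjusted p = 0.0116). NOTCH1, the most widely used receptor of the family, stood at 51.2 ± 13.6 and 81.5 ± 18.0 CPM, a log2 fold change of -0.67 (SE 0.15, adjusted p = 0.0143). At the natural follicular phase 0 of 6 passed in edgeR and 0 in DESeq2, with NOTCH4 at -0.48 (adjusted p = 0.0973) and the endothelial ligand DLL4 at -0.46 (adjusted p = 0.305).

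None of 8 genes of the BMP and hedgehog pathways and of stem cell control passed at either phase in edgeR or DESeq2, although 4 were lower in natural follicular NWS ewes in the fit of all 12 groups. At the luteal phase BMP6, a secreted growth factor, had a log2 fold change of -0.64 (adjusted p = 0.141) and the hedgehog receptor PTCH1 -0.31 (adjusted p = 0.232). At the natural follicular phase the ligand IHH had -2.51 (SE 0.77, adjusted p = 0.0898), on means of 1.87 ± 1.81 CPM in NWS and 10.8 ± 20.9 CPM in Suffolk ewes. MSX1, a homeobox factor of the female tract, had -0.97 (adjusted p = 0.128) there. The median log2 fold change of the list was -0.16 at the luteal and -0.61 at the natural follicular phase.

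Of 31 other developmental transcription factors 5 were lower and 0 higher in luteal NWS ewes, with a median of -0.44. The count was 2 with the epithelium covariate. They were TFCP2L1, a factor of duct and kidney epithelium, at -0.82 (adjusted p = 0.00975), SOX4 at -0.79 (adjusted p = 0.00982), TFAP2C at -1.53 (adjusted p = 0.0126), SHOX2 at -1.14 (adjusted p = 0.0329) and TBX2 at -0.71 (adjusted p = 0.0399). At the natural follicular phase 0 of 31 were called, with a median of -0.48, against 4 lower in DESeq2 and 11 lower in the fit of all 12 groups, and the smallest p belonged to SOX17 (-0.69, adjusted p = 0.0578) and PAX8 (-0.85, adjusted p = 0.0749), which are also in the endothelial and the gland list.

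Marker lists of the tissues that a piece of cervix holds were read in the same way. At the luteal phase 5 of 6 smooth muscle genes were higher in NWS ewes, with ACTG2 at a log2 fold change of 2.15 (adjusted p = 7.82e-05) and DES at 1.99 (adjusted p = 0.000366). The other 3 were PCP4 (4.08), ASB2 (2.09) and POPDC2 (2.83). All 5 were listed by the study among the genes lowest in Suffolk relative to Fur or NWS ewes of the synchronised follicular phase. This count is therefore not an independent marker result. Of 12 leukocyte genes 3 were lower, ITGAX at -0.85 (adjusted p = 0.019), FLT3 at -2.59 (adjusted p = 0.0253) and PDCD1 at -1.49 (adjusted p = 0.0325). With the epithelium covariate 1 of these 12, 0 of the gland and mucus genes and 2 of the smooth muscle genes were called. Of 8 gland and mucus genes 2 were lower, the mucins MUC5AC at -2.57 (adjusted p = 0.0297) and MUC16 at -0.93 (adjusted p = 0.0357). Of 21 epithelial genes 1 was lower, the protease ST14 at -0.61 (adjusted p = 0.0377), whereas JUP at -0.46 (adjusted p = 0.0253) stayed under the 1.5-fold limit. None of 17 fibroblast and matrix identifiers was called, with LOXL2 at -0.51 (adjusted p = 0.0302) and PDGFRB at -0.58 (adjusted p = 0.0323) under that limit. None of 6 endothelial genes was called either, with VWF at -0.53 (adjusted p = 0.0344) and STAB1 at -0.71 (adjusted p = 0.165). With the epithelium covariate, however, 6 of the 17 fibroblast and matrix identifiers were called, 0 of them higher in NWS ewes. The epithelial list then had 1 call, a gene higher in NWS ewes.

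At the natural follicular phase 3 of 21 epithelial genes were called, all lower in NWS ewes, and 0 genes of the other marker lists. DESeq2 called 6 epithelial, 2 gland and mucus, 2 leukocyte, 1 matrix and 1 endothelial gene lower and 4 smooth muscle genes higher. The fit of all 12 groups called 8 epithelial, 4 gland and mucus, 2 leukocyte, 2 matrix and 1 endothelial gene lower and 5 smooth muscle genes higher. The tight junction genes LSR, at -0.66 (adjusted p = 0.0381), and CLDN3, at -1.09 (adjusted p = 0.0491), and ST14, at -0.97 (adjusted p = 0.0411), were these 3. Without NWS replicates 4 and 10, 0 genes of any list were called at this phase in edgeR. The 2 members of smallest p in the other lists were MUC16 (-1.48, adjusted p = 0.0643) and PAX8 (given above) of the gland list, PCP4 (3.15, adjusted p = 0.0963) and ASB2 (2.13, adjusted p = 0.102) of the muscle list, THBS2 (-1.16, adjusted p = 0.109) and LRP1 (-0.70, adjusted p = 0.129) of the matrix list, SOX17 (-0.69, adjusted p = 0.0578) and ANGPT2 (-0.51, adjusted p = 0.35) of the endothelial list, and FLT3 (-2.35, adjusted p = 0.0792) and LCP1 (-0.88, adjusted p = 0.0982) of the leukocyte list.

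The genes whose pattern was most like that of FOXC1 were sought among 1337 named genes tested. Within groups no likeness was strong: the highest Pearson correlation over 14810 genes was 0.439, the lowest -0.387 and the median 0.0128. The 8 highest among named genes were PADI6 (0.342), WIPI1 (0.340), APOA1 (0.333), ROBO4 (0.329), GDPD5 (0.322), ANGPT2 (0.313), MAN1C1 (0.311) and CAPG (0.310). ROBO4 and ANGPT2 encode an endothelial receptor and a ligand of vessel remodelling, and CAPG an actin-capping protein. The 4 lowest were GAS8 (-0.320), QSOX2 (-0.316), WDR34 (-0.316) and NAV2 (-0.308), of which GAS8 and WDR34 encode parts of cilia. By breed these values were uneven: PADI6 ranged from 0.252 in Belclare to 0.685 in Fur ewes, and GAS8 from -0.604 in Fur to 0.337 in Suffolk ewes. ROBO4 ranged from -0.0829 in NWS to 0.492 in Suffolk ewes. Over the 6 genes of the endothelial list the within-group correlation ran from -0.124 to 0.329, with a median of 0.23. At counts as low as those of FOXC1 in NWS and Belclare ewes, such weak correlations carry counting noise.

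**Figure D4:**
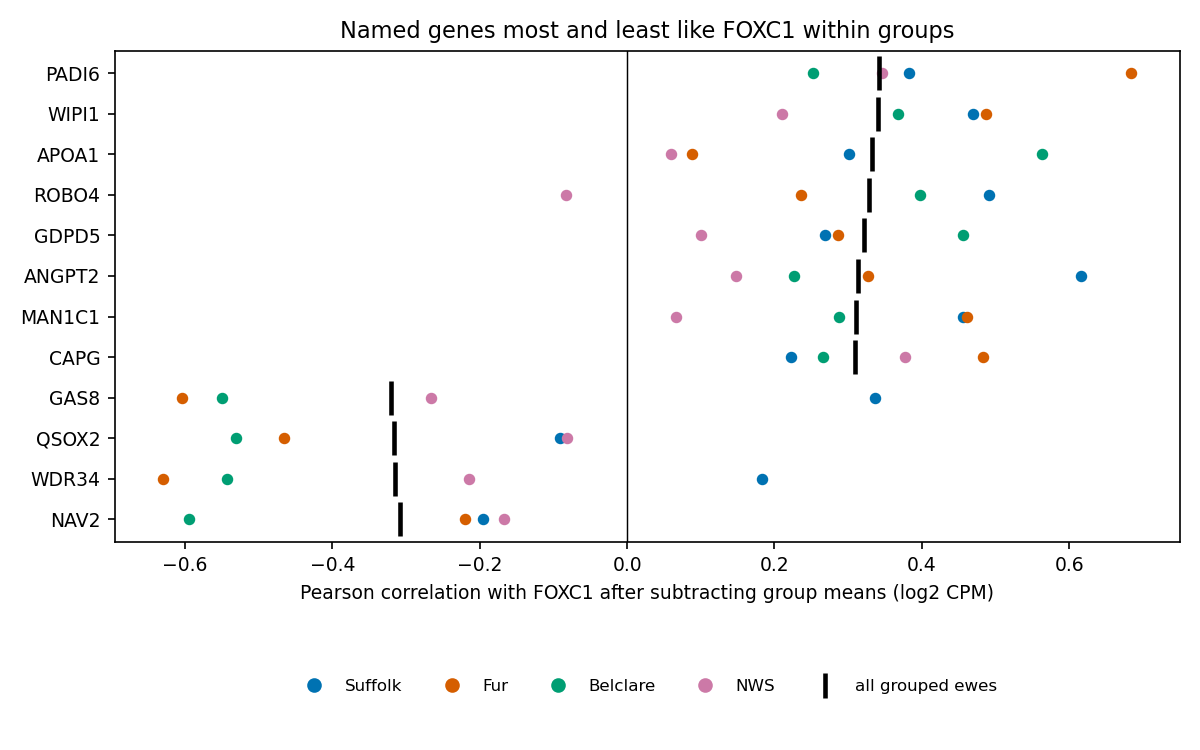
Pearson correlation of each named gene with FOXC1 in log2 CPM after the group means were subtracted. Coloured points are single breeds and black ticks all 114 ewes; the ticks lie between 0.310 and 0.342 for the 8 highest genes and between -0.320 and -0.308 for the 4 lowest.

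Over the 12 group means, the named genes most like FOXC1 were PLEK (0.868), SEC14L6 (0.858), GRIN2D (0.766), SLCO2B1 (0.742) and FAM20A (0.738). PLEK, a signalling protein of platelets and leukocytes, averaged 3.22 ± 1.63 CPM in luteal and 4.42 ± 3.13 CPM in synchronised follicular Suffolk ewes, and 1.09 to 2.54 CPM in the other groups. SLCO2B1, an organic anion transporter, averaged 40.4 ± 10.8 and 39.7 ± 10.8 CPM in these Suffolk groups, 33.7 ± 11.9 CPM in natural follicular Suffolk ewes and 23.0 to 31.6 CPM elsewhere. FAM20A, a secreted pseudokinase of enamel formation, averaged 28.5 ± 12.6 and 31.5 ± 18.0 CPM in luteal and synchronised follicular Suffolk ewes. All 5 genes had their 2 highest means in luteal and synchronised follicular Suffolk ewes, as did FOXC1. They were picked by this likeness, so the shared order follows from the choice and is no separate result. The means include the ewes on which FOXC1 was chosen, and the named genes lean to those high in Suffolk. Within groups, these 5 genes had correlations with FOXC1 from -0.153 (SEC14L6) to 0.255 (SLCO2B1). A correlation over 12 means is a description of those groups.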

How the data were processed

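Cervical RNA of 115 ewes was sequenced in paired-end reads from stranded libraries, and 114 ewes were grouped by breed, cycle and phase from their labels. The authors aligned trimmed reads to Oar_v3.1 with STAR 2.6.1b, allowing few mismatches, kept uniquely mapped pairs, and assigned them to Ensembl protein-coding genes in featureCounts (Subread 1.6.3). The deposited values are raw read counts per gene, so pairs that differ from the reference or match several places are not in them. Whether counting used the strand is not given in the sources used here.

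The 14811 genes tested had 1 CPM or more in 10 or more of the 39 ewes of the synchronised follicular phase. Each comparison was fitted to its own ewes in edgeR 4.0.16 (R 4.3.3) with TMM and the quasi-likelihood F test, and p-values were adjusted over all genes tested. SEs were derived from each log2 fold change and its F statistic. Total counts of 12238996 or more per ewe limit precision at low FOXC1 levels. Log2 CPM used a prior count of 2. Permutation tests were exact where a group had under 10 ewes and otherwise drew 100000 resamples. Alternatives were DESeq2 1.42.0, its size factors, other filters, covariates, the fit of all groups, the replicate number as a block, glmTreat and ewes left out.

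FOXC1 and the gene lists were chosen with earlier results of these data known. Named genes are FOXC1, the 2 members of smallest p of each list and, beyond that rule, members counted as called or close to it, and the 8 highest, 4 lowest and, over group means, 5 highest correlations among named genes. Of 24 comparisons of FOXC1, 4 (natural follicular against luteal ewes of a breed) were added after its values were seen, as was leaving out NWS replicate 7 against Fur. Gene names came from the study's tables. No 2 libraries of a group agreed within counting noise (lowest chi-square per degree of freedom 16.1 over 490 pairs). That each library is a separate ewe is taken from the labels. No genome of the files' build was used, so neither coordinates nor sequences are given.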

Additional observations from a re-analysis of the deposited data

Results flagged for a closer look

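On the CPM scale, 2 of 11 groups of 8 to 10 ewes held a single ewe whose gap to the next exceeded a critical value. These critical values, those of Dixon's test, are made for normally distributed values, and whether FOXC1 in CPM is so distributed was not tested. The highest and the lowest ewe of each of the 11 groups were examined, with no correction for the number of tests. NWS replicate 7 of the natural follicular phase had 3.52 CPM of FOXC1, and the next ewe of its group 1.01 CPM, so the gap took up 0.821 of the group's range against a critical value of 0.466. NWS replicate 8 of the luteal phase had 3.40 CPM, the next ewe 1.78 CPM, and the gap took up 0.537 of the range against a critical value of 0.526. On the log2 CPM scale the gap of replicate 7 was 0.638 of the range, still over its critical value, and that of replicate 8 was 0.315, under it.

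The change of FOXC1 in Fur against Suffolk ewes differed between the natural follicular and the luteal phase, by 1.95 on the log2 scale in a test of the difference itself (adjusted p = 0.0457).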

How the results depend on the processing

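Apart from leaving out single ewes, 209 refits or retests of FOXC1 kept the direction and the side of the threshold, 10 newly passed it, 4 no longer passed and 10 changed sign. Most comparisons were not called in the main fit, so the 209 are mainly results that stayed uncalled. Of the called comparisons, only Fur against Suffolk at the luteal phase kept its call in every alternative. For the permutation tests in these counts, passing means only an unadjusted p under 0.05, with no limit on the fold change. NWS against Suffolk at the natural follicular phase passed in DESeq2 (-1.57), in the fit of all 12 groups (-1.55) and by the exact permutation test (-1.29, p = 0.021). NWS against Fur there passed in DESeq2 (-1.81), in the fit of all groups (-1.79) and by the permutation test (-1.71, p = 0.00092). It also passed without NWS replicate 7 (-2.30), a fit that is not in these counts. Belclare against Suffolk at the luteal phase passed in DESeq2 (-1.53), in the fit of all groups (-1.52) and by the permutation test (-2.43, p = 8e-05). NWS against Fur at the luteal phase passed only by the exact permutation test, unadjusted (-0.81, p = 0.0473). NWS against Suffolk at the luteal phase no longer passed with the ACTG2 and DES covariate (-1.30), the Fur interaction without a filter (1.93) and with the epithelium covariate (1.90), and natural follicular against luteal Suffolk in glmTreat (-1.31). With the muscle covariate the sign turned in NWS against Belclare at the natural follicular phase (0.25) and in natural follicular against luteal NWS (0.050). By the permutation test it turned in Fur against Belclare at the luteal phase (0.69, exact p = 0.325) and in Belclare for the phase (0.062), the cycle (0.025) and natural follicular against luteal ewes (0.037). None of these was called in either direction, and the causes were not tested.

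Leaving out single ewes gave -2.05 to -1.30 for NWS and 0.06 to 0.48 for Fur against Suffolk at the natural follicular phase, and -2.73 to -2.27 and -1.81 to -1.61 at the luteal phase. Replicate numbers are shared by different animals, and in no comparison did every same-numbered pair correlate over 0.1, so the ewes were not treated as paired. This rule cannot exclude a weaker link between ewes of the same number. With the replicate number as a block, the sign turned for Fur against Belclare at the luteal phase (0.26) and in Belclare for the phase (0.061), the cycle (0.030) and natural follicular against luteal ewes (0.014), and no call of FOXC1 changed. The block left 211 genes called in luteal NWS against Suffolk ewes, where 645 were called without it, and 0 at the natural follicular phase, where 147 were. Of the luteal list counts, it left 0 leukocyte, 0 gland and 0 epithelial genes and 1 developmental factor. In natural follicular NWS against Suffolk ewes 0 genes were called without NWS replicates 4 and 10, 830 in DESeq2 and 1328 in the fit of all groups. Natural follicular NWS against Fur went from 5 genes to 41 and 99, and luteal Belclare against Suffolk from 360 to 938 and 990, in DESeq2 and in the fit of all groups.

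Counts called of the gene lists stayed within 1.5 times in 143 and moved further in 47 of their alternatives, and all 29 alternative correlations lay within 0.1 of those given. Median FOXC1 counts per group were 12 to 19.5 in NWS and 22.5 to 35 in Belclare, against 124 in luteal Suffolk ewes, so counting error weighs most in those 2 breeds.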

Other observations

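In 1 library the labels name different stages: its title gives the natural follicular phase of Suffolk ewes, and its other labels an induced cycle and the luteal phase. It was placed in no group and entered no comparison. It had 112 counts of FOXC1 in a total of 15387419, or 7.28 CPM without normalization factors. Grouped Suffolk ewes ranged from 0.452 to 6.20 CPM at the natural follicular phase and from 5.75 to 8.68 CPM at the luteal phase.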
